A study of Mus musculus with 11 samples.

Results

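The insulin and insulin-like growth factor (IGF) system genes examined here are 10 genes whose products act upstream of the kinase AKT: the ligands Igf1 and Igf2, the receptors Igf1r, Insr and Igf2r, the adaptors Irs1 and Irs2, and the binding proteins Igfbp2, Igfbp4 and Igfbp5. They were taken by symbol from count files of 24490 genes, and all 10 were present and passed the low-count filter. The cells were primary granulosa cells of RjOrl:SWISS mice, the somatic cells that surround the oocyte in the ovarian follicle. Every culture was given 30 pmol of siRNA with a lipid carrier, which was washed off at 5 h, and RNA was isolated at 30 h. Of the 11 libraries, 8 came from cells given siRNA against Akt1, 2 from each of 4 pools, and 3 came from cells given a nontargeting siRNA, called scramble. Each pool held 3 of 4 Akt1 siRNAs. Pool 1 left out siRNA 9, pool 2 left out siRNA 7, pool 3 left out siRNA 8 and pool 4 left out siRNA 6. The protocol and the sample titles name the pools differently, and they were matched here by number. Neither the age of the mice nor whether replicates were separate cultures is stated, so the p-values reflect the spread among these libraries alone, and that spread may be technical.

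Insulin, IGF1 and IGF2 bind receptor tyrosine kinases, the insulin receptor and the IGF1 receptor, which phosphorylate the adaptors IRS1 and IRS2. These recruit PI3-kinase, which leads to activation of AKT. Granulosa cells of rodents make IGF1 themselves, and IGF1 acts with follicle-stimulating hormone on their growth and steroid synthesis. IGF-binding proteins hold the ligands in the medium and on the matrix, and IGF2R removes IGF2 from the cell surface. AKT in turn holds FOXO transcription factors out of the nucleus, and FOXO proteins are known to act on the Irs2 and Insr genes in liver. The design therefore allows the question of whether a loss of Akt1 mRNA was accompanied by altered mRNA of the genes that feed into AKT, and whether this depended on the siRNA pool.

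The 3 genes whose mRNA was lowest relative to pool 2 in the pools that held siRNA 7 were Igf1, Irs1 and Irs2, and the start regions of these genes are shown for that reason. The windows run from 250 bases before to 50 bases after a RefSeq transcript start on GRCm38.p6, and are printed 5′ to 3′ on the strand of the gene. The Igf1 window lies on the plus strand at chr10:87860861-87861160, the Irs1 window on the minus strand at chr1:82291390-82291689 and the Irs2 window on the minus strand at chr8:11008880-11009179. Capitals mark CACGTG, the palindromic E-box read by basic helix-loop-helix factors, TGTTTTG, a form of the insulin response sequence that FOXO proteins can bind, and GTAAACA, the forkhead consensus, each searched on both strands.
Igf1: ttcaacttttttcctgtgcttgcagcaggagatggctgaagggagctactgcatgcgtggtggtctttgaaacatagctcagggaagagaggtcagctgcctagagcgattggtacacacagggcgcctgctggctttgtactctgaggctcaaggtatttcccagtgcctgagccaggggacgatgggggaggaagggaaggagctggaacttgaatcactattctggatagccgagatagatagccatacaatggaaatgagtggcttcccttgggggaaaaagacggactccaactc
Irs1: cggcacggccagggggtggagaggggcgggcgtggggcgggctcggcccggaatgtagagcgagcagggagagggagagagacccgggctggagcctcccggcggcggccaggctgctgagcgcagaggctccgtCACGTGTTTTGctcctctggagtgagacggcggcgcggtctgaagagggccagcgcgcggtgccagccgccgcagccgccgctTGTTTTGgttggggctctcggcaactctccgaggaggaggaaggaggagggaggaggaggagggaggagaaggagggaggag
Irs2: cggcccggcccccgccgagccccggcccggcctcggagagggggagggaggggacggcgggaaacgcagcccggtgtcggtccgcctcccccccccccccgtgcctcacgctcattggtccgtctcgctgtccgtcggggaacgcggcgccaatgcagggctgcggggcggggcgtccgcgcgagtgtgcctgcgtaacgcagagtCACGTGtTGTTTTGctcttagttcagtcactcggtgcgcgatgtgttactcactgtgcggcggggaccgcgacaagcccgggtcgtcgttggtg
The Irs1 window held CACGTG at bases 136 to 141, counted from the 5′ end, overlapped by TGTTTTG at bases 140 to 146, and a second TGTTTTG at bases 219 to 225. The Irs2 window held CACGTG at bases 207 to 212 and TGTTTTG at bases 214 to 220. The Igf1 window held none of the 3 motifs. It lies inside the gene, which begins at 87858265 in GENCODE, so a start further upstream was not searched. The Irs2 window lies wholly before the GENCODE start of Irs2, at 11008458. Motifs near other starts of these genes are therefore not known from these windows. Of 32851 windows of the same length in the table, CACGTG was in 7.15%, TGTTTTG in 6.28%, both together in 0.408% and GTAAACA in 3.65%. Among the 13 windows of the 9 genes with an entry, CACGTG was in 4, from Irs1, Irs2, Igf2r and Igfbp2, TGTTTTG was in the 2 adaptor windows, and GTAAACA was in 0. These motifs were chosen after the windows had been read, and a match describes letters, not binding.

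Library depth was 23851293 to 32643158 reads in genes. Akt1, the targeted gene, was at 52.7 to 81.7 CPM (reads scaled to the total of a library in genes) in the 8 pool libraries and at 399 to 529 CPM in the 3 scramble libraries, with no overlap. Its log2 fold change was −2.87 ± 0.13 (SE) for all pools against scramble (edgeR quasi-likelihood test, adjusted p = 4.41e-07). Residual Akt1 was highest in pool 3, at 79.3 and 81.7 CPM, and was at 52.7 and 55.1 CPM in pool 2. Granulosa markers such as Foxl2 (112 to 203 CPM) and Inha (1241 to 3486 CPM) were expressed in every library, whereas Fshr and Amh, which also define these cells, were at or below 0.367 and 0.827 CPM. Of markers of other ovarian cells, Ptprc of leukocytes was at most 0.134 CPM, Cyp17a1 of theca cells at most 0.460 CPM and Zp3 of oocytes at most 0.0919 CPM, but the whole list of 10 theca and stroma markers summed to 4377 to 5418 CPM in the pools and 5584 to 7692 CPM in scramble. Because these are bulk samples, fewer cells of a type and less RNA per cell cannot be told apart.

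A single library, scramble replicate 1, was unlike the rest, and it was so in most of the genes studied here. Its counts differed from those of scramble replicates 2 and 3 by a chi-square per degree of freedom of 273 and 294, against 2.63 to 6.25 for other pairs of the same group. Relative to the mean of scramble replicates 2 and 3, it held 35.1% as much Igf2r, 41.8% as much Insr, 43.9% as much Igf1r, 44.1% as much Igfbp5, 51.3% as much Irs1 and 69.4% as much Igf1, but 257% as much Igfbp2 and 142% as much Igfbp4. Igf2 was nearly level, at 97.7%. Exon length moved with this shift. Across 20 classes of genes by merged exon length, the median log2 difference was 1.095 in the class of shortest genes (median 756 bases) and −1.27 in that of the longest (median 10671 bases). The receptors Igf1r, Insr and Igf2r, with exon lengths of 11409, 9355 and 8887 bases, lay at −1.23, −1.30 and −1.55, close to the median of their class. Irs2, with 6323 bases, did not follow its class. It was at 2.45 CPM in scramble replicate 1 against 27.7 and 27.8 CPM in the other scramble libraries, a log2 difference of −3.49 where its class had a median of −0.81, lower than all but 0.581% of 688 genes of like length. What set this library apart was not tested. For this reason the counts of called genes against scramble, and the values of genes called without it, are given with and without it.

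**Figure D1:**
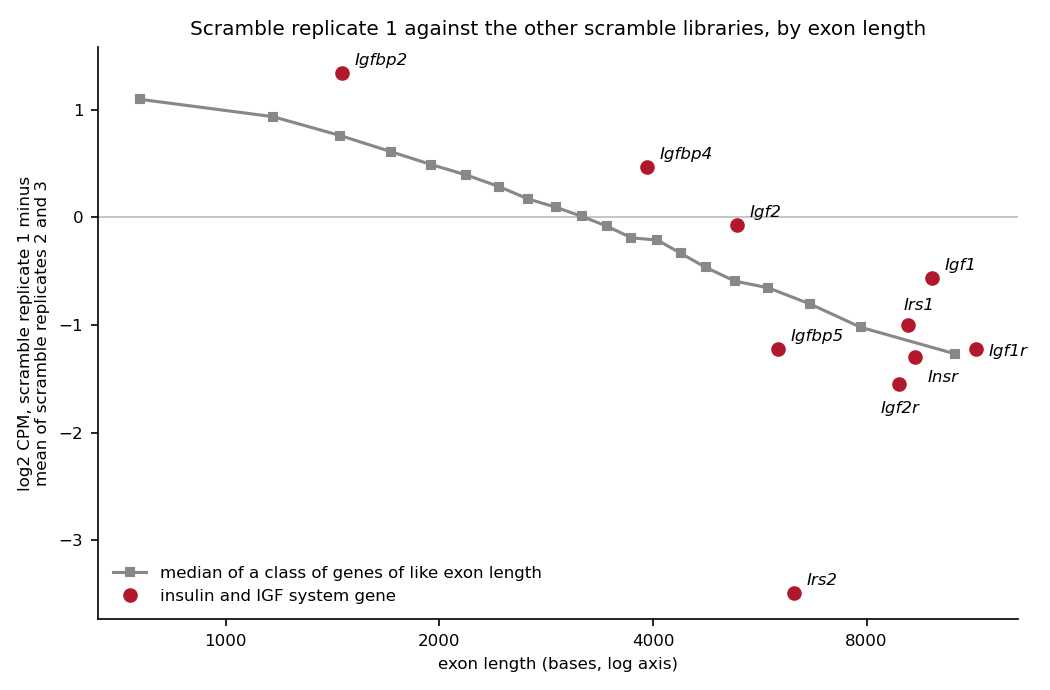
Log2 CPM of scramble replicate 1 minus the mean of scramble replicates 2 and 3 (vertical axis) against merged exon length in bases (log axis). Grey squares are medians of 20 classes of genes by length and red points are the 10 insulin and IGF system genes. The receptors and Irs1 lie near the grey line, Igf1, Igf2, Igfbp2 and Igfbp4 above it, Igfbp5 below it, and Irs2, at −3.49, far below it.

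Per kilobase of exon, Igfbp2 was the most abundant of the 10 mRNAs and Igf2 the least. Over the 8 pool libraries Igfbp2 averaged 212 ± 26.3 CPM per kilobase (RPKM; SD, n = 8). Igfbp5 (37.0 ± 4.14 RPKM) and Igf2r (35.7 ± 1.56 RPKM) followed and did not differ beyond their spread. Igf1 was at 24.7 ± 5.00 RPKM and Insr at 20.3 ± 1.27 RPKM, again within their spread, and Igf1r was lower, at 9.27 ± 0.246 RPKM. These spreads take in the differences between pools, which were largest for Igf1, and are not spreads of replicates alone. Igfbp4, at 9.44 ± 0.647 RPKM, did not differ from Igf1r beyond the spread. The adaptors were lower, Irs1 at 7.20 ± 0.912 RPKM and Irs2 at 4.48 ± 0.539 RPKM, and Igf2 was at 0.850 ± 0.150 RPKM.

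In the fits of all 11 libraries, 0 of the 10 genes passed an adjusted p of 0.05 in any of the 9 comparisons made. For all pools against scramble the adjusted p ranged from 0.171 for Insr to 0.889 for Igf1, in a comparison that called 0.00715% of 13989 genes, Akt1 alone. At an unadjusted p of 0.05, 1 of the 10 genes passed, and DESeq2 called 0. Their median log2 fold change was 0.29, against −0.02 for all genes tested, and without scramble replicate 1 it was 0.04, against 0.00 for all genes. In the authors' deposited table of the same comparison, 6 of the 10 genes had a p-value, the adjusted p of these was 0.133 to 0.893, and 0 were below 0.05, against 9.72% of 10136 genes with an adjusted p.

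The ligand Igf1 (chromosome 10, 87858265 to 87937042) was the gene of the set that differed most between pools. It had 245 and 228 CPM in pool 1, 304 and 323 CPM in pool 2, 182 and 187 CPM in pool 3, and 249 and 242 CPM in pool 4, against 179, 247 and 268 CPM in scramble. Pool 2 was above every other library and pool 3 was below every library but scramble replicate 1, with the duplicates of each pool close together. Igf2 (chromosome 7, 142650766 to 142666816), a paternally expressed growth factor, was scarce. Its values were 3.89 and 5.13 CPM in pool 1, 3.71 and 3.51 CPM in pool 2, 4.45 and 4.11 CPM in pool 3, and 5.32 and 5.58 CPM in pool 4, against 3.40, 3.35 and 3.61 CPM in scramble. Pool 4 was highest and pool 2 overlapped scramble, on 86 to 152 reads a library.

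The IGF1 receptor gene Igf1r (chromosome 7, 67952827 to 68233668) was nearly level across pools, at 101 to 109 CPM in the 8 pool libraries, against 42.0, 93.1 and 98.6 CPM in scramble. Every pool library was above every scramble library, though by little over scramble replicate 3. Insr (chromosome 8, 3122061 to 3279617), the insulin receptor gene, had 203 and 192 CPM in pool 1, 169 and 176 CPM in pool 2, 185 and 201 CPM in pool 3, and 194 and 195 CPM in pool 4, against 68.8, 157 and 173 CPM in scramble. Pool 2 overlapped scramble replicate 3 and the other pools did not. Igf2r (chromosome 17, 12682406 to 12769664) had 294 to 336 CPM in the pools, lowest in pool 3 with 294 and 305 CPM, against 104, 293 and 303 CPM in scramble. The antisense gene Airn, which overlaps Igf2r, was at 3.77 to 8.24 CPM, and whether the counting used strand is not known.

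The adaptor Irs1 (chromosome 1, 82233101 to 82291416) followed the order of Igf1. It had 64.2 and 64.6 CPM in pool 1, 77.7 and 77.9 CPM in pool 2, 55.7 and 56.4 CPM in pool 3, and 63.8 and 66.3 CPM in pool 4, against 32.8, 60.8 and 67.2 CPM in scramble. Pool 2 was again highest and pool 3 lowest of the pools, and pools 1 and 4 lay between scramble replicates 2 and 3. Irs2 (chromosome 8, 10984681 to 11008458) had 25.6 and 27.5 CPM in pool 1, 32.3 and 34.4 CPM in pool 2, 25.7 and 29.5 CPM in pool 3, and 25.5 and 26.4 CPM in pool 4, against 2.45, 27.7 and 27.8 CPM in scramble. Here pool 2 stood above the rest, and pool 3 was not the lowest.

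The binding protein genes Igfbp2 (chromosome 1, 72824503 to 72852474) and Igfbp5 (chromosome 1, 72857932 to 72874884) are neighbours that point towards each other with 5457 bases between them, and they did not share a pattern. Igfbp2 had 302 and 289 CPM in pool 1, 280 and 268 CPM in pool 2, 377 and 360 CPM in pool 3, and 294 and 305 CPM in pool 4, against 707, 318 and 232 CPM in scramble. Pool 3 was the highest pool, and the scramble libraries spread on both sides of the pools. Igfbp5 had 241 and 219 CPM in pool 1, 179 and 233 CPM in pool 2, 215 and 245 CPM in pool 3, and 197 and 250 CPM in pool 4, against 124, 277 and 285 CPM in scramble. All 8 pool libraries were below scramble replicates 2 and 3, and above scramble replicate 1. Igfbp4 (chromosome 11, 99041244 to 99054392) was at 32.9 to 40.4 CPM in the pools, lowest in pool 2, against 48.5, 35.5 and 32.9 CPM in scramble.

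**Figure D2:**
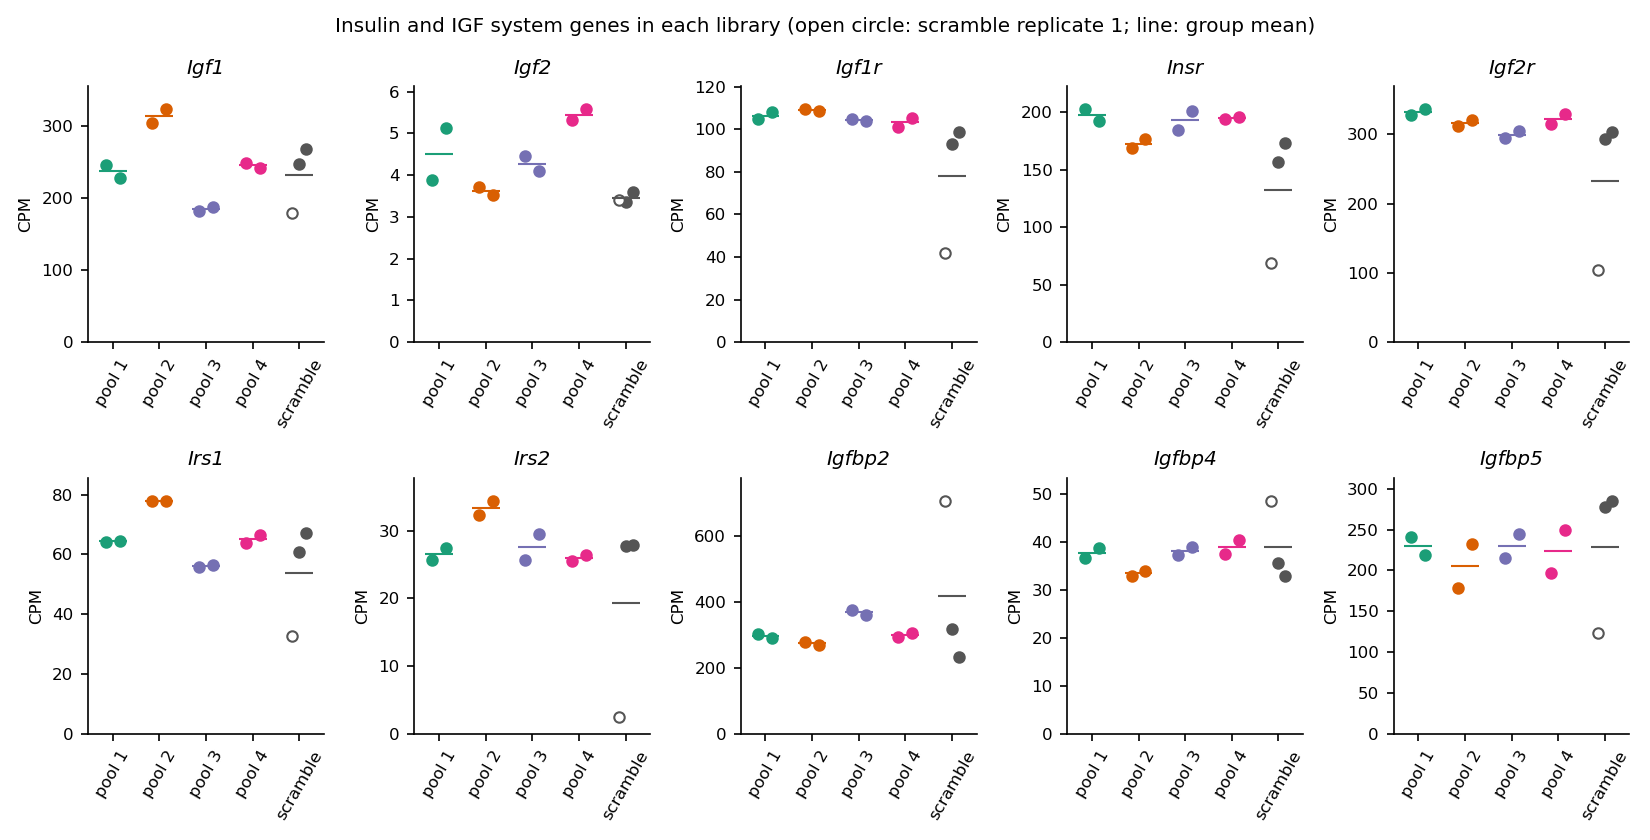
CPM of the 10 genes in each library, with 1 panel per gene and a vertical axis from 0. Points are libraries, lines are group means, and open circles are scramble replicate 1. Igf1 and Irs1 are highest in pool 2 and lowest, among the pools, in pool 3. Igf1, Igf1r, Insr, Igf2r, Irs1, Irs2 and Igfbp5 have their lowest value in scramble replicate 1.

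Set against scramble replicates 2 and 3 alone, each pool had called genes in this system, with log2 fold changes under 0.60 in size. In pool 1, 3 of the 10 genes were called, against 28.8% of 14062 genes tested (with all libraries 1.93% of 14144 genes and 0 of the 10). In pool 2, 5 were called, against 4.39% of genes (0.00707% with all libraries). Pool 3 had 5 called, against 48.8% of genes (11.2% with all libraries), and pool 4 had 4, against 31% of genes (2.57% with all libraries). The shares in pools 1, 3 and 4 are near the background, and the pool 2 count is above it. For all pools in the 2-group fit without scramble replicate 1, 0 of the 10 genes were called by edgeR, 2 had an unadjusted p below 0.05, and 0.469% of genes were called. DESeq2 called 1 in that comparison, Igfbp5.

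Igf1 fell in pool 3 by 0.57 ± 0.05 (SE) on the log2 scale against scramble replicates 2 and 3 (edgeR, adjusted p = 5.01e-09), which left 71.7% of their mean. It fell by 0.19 ± 0.05 in pool 1 (adjusted p = 0.00543) and by 0.13 ± 0.05 in pool 4 (adjusted p = 0.047). In pool 2 it rose, with a log2 fold change of 0.27 ± 0.05 (adjusted p = 0.00163). The calls in pools 2 and 3 held with each further library left out in turn, with adjusted p up to 0.0406 in pool 2. The pool 4 call held in 2 of 10 such fits, and the pool 1 call was lost without pool 1 replicate 2 (adjusted p up to 0.115) or without scramble replicate 3 (adjusted p = 0.0511), and had an adjusted p of 0.0543 with library size scaling. Keeping scramble replicate 1, the Igf1 values in pools 1 to 4 were −0.02, 0.44, −0.40 and 0.04, of which none was called (adjusted p from 0.178 to 0.945), and the value in pool 4 was of the other sign.

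Irs1 showed the same pair of directions, lower by −0.28 ± 0.05 in pool 3 (edgeR, adjusted p = 0.000117) and higher by 0.27 ± 0.05 in pool 2 (adjusted p = 0.00214), and both calls held in 10 of 10 further leave-outs. Both rest on the omission of scramble replicate 1, since with it Irs1 was at −0.01 ± 0.26 in pool 3 (adjusted p = 0.986) and at 0.53 ± 0.26 in pool 2 (adjusted p = 0.611). For Irs2 the log2 fold change was 0.25 ± 0.07 in pool 2 (adjusted p = 0.0437), a call that held in 2 of 10 leave-outs and had an adjusted p of 0.0911 with DESeq2. The value with all libraries was 0.78 ± 0.73 (adjusted p = 0.614). Igf1r rose in pool 2 by 0.17 ± 0.04 on the log2 scale (adjusted p = 0.0307), and this was lost without either pool 2 library or without scramble replicate 2 (adjusted p up to 0.196). It was at 0.48 ± 0.31 with all libraries (adjusted p = 0.611).

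Insr rose in pools 1, 3 and 4, the pools with siRNA 7, with log2 fold changes of 0.20 ± 0.05, 0.14 ± 0.05 and 0.18 ± 0.05 (edgeR, adjusted p = 0.00639, 0.0271 and 0.0106). In pool 2 its value was 0.05 ± 0.05 (adjusted p = 0.688). The values with all libraries were 0.51, 0.47 and 0.50 in pools 1, 3 and 4, and were not called (adjusted p = 0.473, 0.385 and 0.448). Leaving out scramble replicate 2 as well ended all 3 calls (adjusted p = 0.0815, 0.227 and 0.117). The call was also lost in pool 1 without pool 1 replicate 1 (adjusted p = 0.0830) and in pool 3 without pool 3 replicate 2 (adjusted p = 0.269). With the trend on exon length removed and all 11 libraries kept, the Insr values were 0.25, 0.20 and 0.24 in pools 1, 3 and 4 (adjusted p = 0.0315, 0.0309 and 0.0334). Igf2 rose in pool 4 by 0.59 ± 0.15 on the log2 scale (adjusted p = 0.00519), and held in 10 of 10 leave-outs. It was at 0.61 ± 0.14 with all libraries (adjusted p = 0.0735).

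Igfbp5 was the 1 gene of the 10 that fell in all 4 pools, with log2 fold changes of −0.36, −0.47, −0.38 and −0.39 in pools 1 to 4, each with an SE of 0.10 (edgeR, adjusted p = 0.00772, 0.00518, 0.00255 and 0.00347). The pools held 81.9%, 73.2%, 81.7% and 79.4% of the mean of scramble replicates 2 and 3. Each call was lost when 1 library of its own pool was also left out, pool 1 replicate 2, pool 2 replicate 1, pool 3 replicate 1 or pool 4 replicate 1, with adjusted p up to 0.172. DESeq2 gave adjusted p of 0.0756 to 0.140 for the 4 pools, and with all 11 libraries the 4 values were −0.16 to −0.05. For Igfbp2 in pool 3 the log2 fold change was 0.33 ± 0.08 (edgeR, adjusted p = 0.00216), and DESeq2 did not call it (adjusted p = 0.0526). Including all libraries, this value was −0.25 ± 0.38, of the other sign. Igfbp4 was not called in any pool, with log2 fold changes of −0.05 to 0.12.

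**Figure D3:**
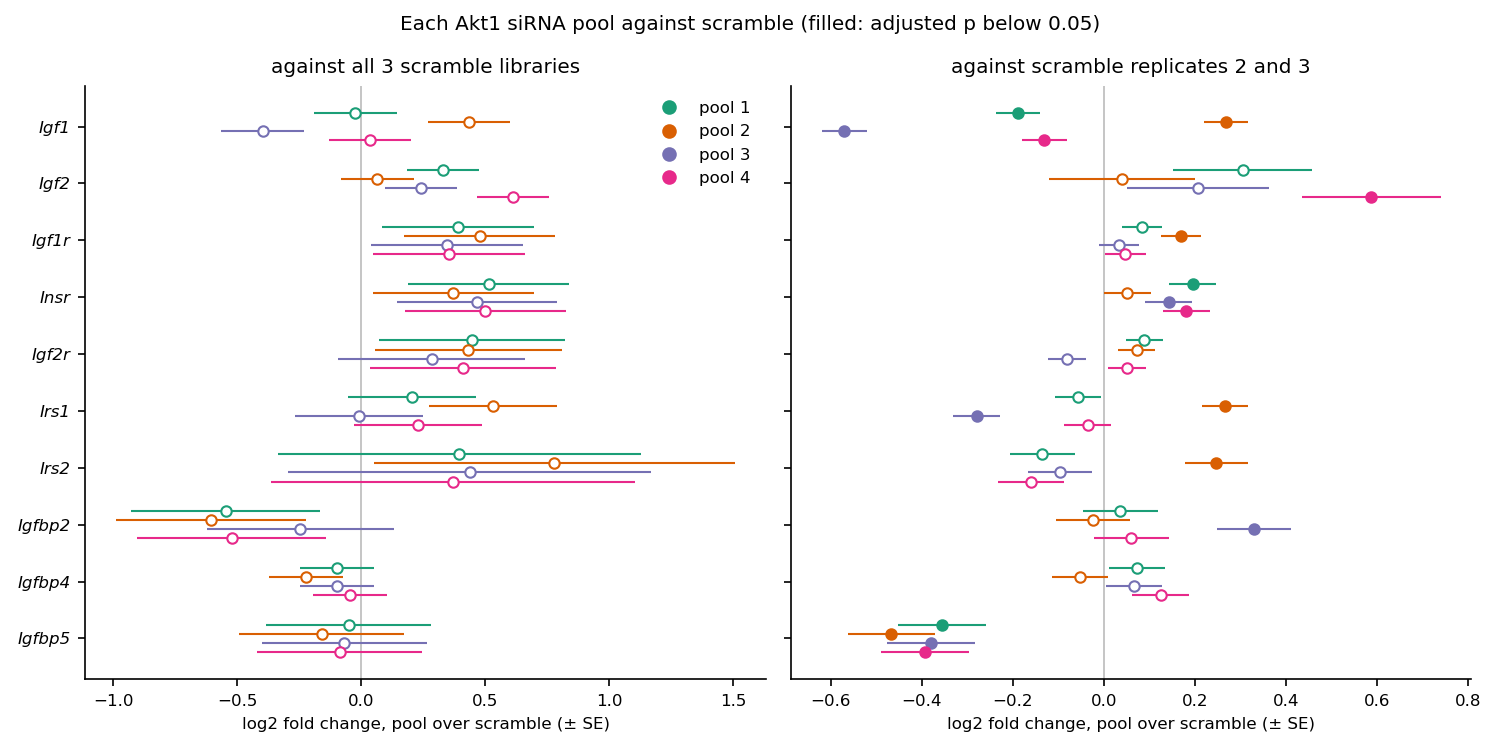
Log2 fold change of each of the 10 genes in each pool over scramble (horizontal axis, bars are SE), with all 3 scramble libraries on the left and scramble replicates 2 and 3 on the right. Filled points have an edgeR adjusted p below 0.05. No point is filled on the left, and the 2 panels have different scales. On the right Igf1 runs from −0.57 in pool 3 to 0.27 in pool 2, and Igfbp5 lies between −0.47 and −0.36 in all 4 pools.

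Comparisons between pools set no library against scramble. In the fit of all 11 libraries, which shares 1 estimate of spread across groups, the 4-pool test, for a difference among any of the pools, called 0 of the 10 genes by edgeR, against 2.46% of 14144 genes. Igf1 was lowest with an adjusted p of 0.182, 2 genes had an unadjusted p below 0.05, and DESeq2 called Igf1 (adjusted p = 0.0178). When the 8 pool libraries were fitted alone, a choice made after the data had been seen, 8 of the 10 genes were called, against 48.6% of 14056 genes. The adjusted p was 1.83e-12 for Igf1, 2.41e-09 for Irs1, 1.25e-07 for Igfbp2, 4.06e-05 for Irs2, 0.000826 for Igf2r, 0.0119 for Igf1r, 0.0220 for Igf2 and 0.0233 for Insr. Igfbp4 (0.0643) and Igfbp5 (0.743) were not called. Igf1, Irs1, Igfbp2, Irs2 and Igf2r passed in 8 of 8 fits that left out a further pool library. Igf2 was lost without pool 2 replicate 2 or without either pool 4 library, Igf1r without either pool 2 library, and Insr without pool 1 replicate 1 or pool 2 replicate 1. DESeq2 on the same libraries called 6 of the 10, without Igf1r (adjusted p = 0.0604) and Igf2 (adjusted p = 0.156).

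Igf1, Irs1 and Irs2 were all lower in the pools with siRNA 7 than in pool 2. In pools 1, 3 and 4, which held siRNA 7, they were at 70.9%, 79.5% and 79.96% of their mean in pool 2, which did not. The log2 fold changes were −0.57 ± 0.03 for Igf1, −0.39 ± 0.03 for Irs1 and −0.38 ± 0.05 for Irs2 (edgeR on the 8 pool libraries, adjusted p = 1.63e-12, 1.15e-09 and 3.74e-06). In each of the 3 genes, all 6 libraries with siRNA 7 were below both pool 2 libraries. Relative to the mean of scramble replicates 2 and 3, pool 2 was at 121.8%, 121.5% and 120.1% for Igf1, Irs1 and Irs2. Pools 1, 3 and 4 were at 91.9%, 71.7% and 95.3% for Igf1. They were at 100.6%, 87.5% and 101.7% for Irs1, and at 95.5%, 99.2% and 93.3% for Irs2. Igf1r was lower by −0.12 ± 0.03 (adjusted p = 0.00242). Igf2 (0.32 ± 0.12), Igfbp2 (0.16 ± 0.03), Igfbp4 (0.14 ± 0.05) and Insr (0.12 ± 0.03) were higher in the pools with siRNA 7, with adjusted p of 0.0335, 9.1e-05, 0.0160 and 0.00545.

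That made 8 of 10 genes called between pools with and without siRNA 7, 4 higher and 4 lower, against 47.6% of genes (22.3% higher and 25.3% lower). The median log2 fold change of the 10 was 0.02, against 0.01 over all genes. Igf2 was lost when any 1 of 4 libraries was left out, namely pool 1 replicate 2, either pool 2 library or pool 3 replicate 1 (adjusted p up to 0.176). Insr (adjusted p = 0.116) and Igfbp4 (adjusted p = 0.145) were lost without pool 2 replicate 1. With all 11 libraries 0 of the 10 were called by edgeR, against 5.25% of genes, 2 had an unadjusted p below 0.05, and Igf1 came nearest (adjusted p = 0.0658, and 0.0147 with DESeq2). Residual Akt1 was higher in the pools with siRNA 7 than in pool 2, by 0.24 ± 0.04 on the log2 scale (edgeR on the 8 pool libraries, adjusted p = 0.000128). Pool 3 made up much of this mean, at 79.3 and 81.7 CPM. Pools 1 and 4, at 55.1 to 63.9 CPM, reached down to the level of pool 2, at 52.7 and 55.1 CPM. Pool 2 thus differs from the others by the absence of siRNA 7, as a transfection of its own and, mainly from pool 3, in residual Akt1. These cannot be told apart.

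Pool 3, which left out siRNA 8, differed from pools 1 and 4 in 4 of the 10 genes in the pool libraries alone, against 29.9% of genes. Igf1 was lower in pool 3 by 0.41 ± 0.03 on the log2 scale (edgeR, adjusted p = 1.65e-08), Irs1 by 0.23 ± 0.04 (adjusted p = 3.33e-05) and Igf2r by 0.15 ± 0.03 (adjusted p = 0.000481). Igfbp2 rose by 0.28 ± 0.03 (adjusted p = 4.82e-07). All 4 calls held in 8 of 8 further leave-outs. With all 11 libraries 0 of the 10 were called by edgeR and by DESeq2, 1 had an unadjusted p below 0.05, and 0.0141% of genes were called. The pool with the largest fall of Igf1 was also the pool with the most Akt1 mRNA left, which was higher in pool 3 than in pools 1 and 4 by 0.40 ± 0.04 on the log2 scale (adjusted p = 7.05e-07).

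Pools 1 and 4 were not distinguished. Their log2 difference was −0.28 ± 0.14 for Igf2, −0.06 ± 0.04 for Igf1 and between −0.05 and 0.04 for the others, with adjusted p from 0.890 to 0.988 in the pool libraries alone. In this comparison 0 of the 10 genes were called and 0 had an unadjusted p below 0.05. The background was 0.0285% of genes called, and 0% with all 11 libraries.

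**Figure D4:**
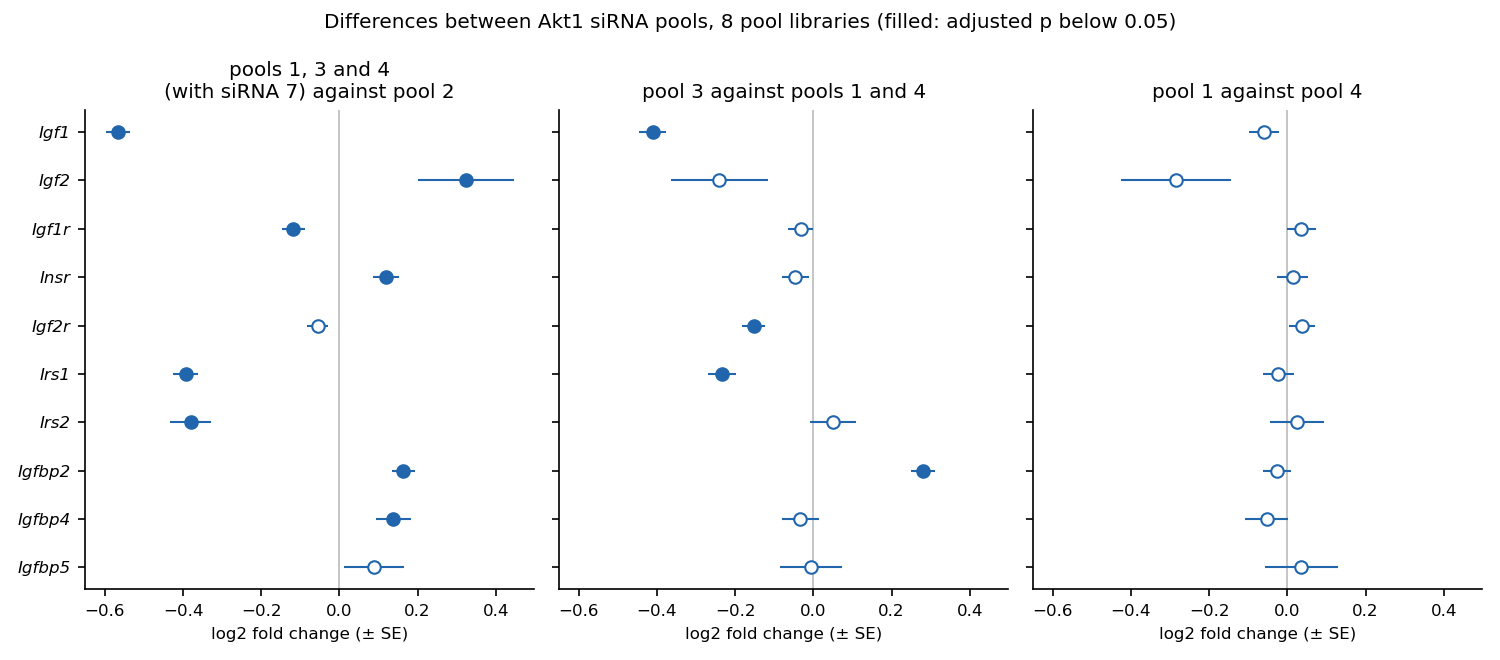
Log2 fold changes of the 10 genes in 3 comparisons between Akt1 siRNA pools, from the 8 pool libraries alone (bars are SE, filled points have an edgeR adjusted p below 0.05). Igf1, Irs1 and Irs2 lie furthest to the left in the first panel, Igf1 and Irs1 again in the second, and no point is filled in the third.

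Markers of cell types moved with the same split of pools. The summed level of 14 granulosa markers was 3204 to 4236 CPM in pools 1, 3 and 4, against 4741 to 5120 CPM in pool 2, with Fshr and Amh below 1 CPM throughout. In scramble this sum was 5294 to 5373 CPM, above every pool library. That of 10 theca and stroma markers was 4377 to 4926 CPM in pools 1, 3 and 4, against 5317 to 5418 CPM in pool 2, with Cyp17a1, Insl3 and Gli1 below 1 CPM. It too was above every pool library in scramble, at 5584 to 7692 CPM, and the part of both sums in the differences from scramble was not tested. The sum of 5 surface epithelium markers was 72.6 to 97.0 CPM, against 114 to 118 CPM, and that of 5 endothelium markers 15.1 to 19.2 CPM, against 13.3 to 15.03 CPM. Sums of 5 leukocyte markers (5.84 to 9.50 CPM, against 5.58 to 7.16 CPM) and 7 oocyte markers (1.21 to 1.73 CPM, against 0.821 to 0.937 CPM) were small, with Ptprc, Adgre1 and 6 of the 7 oocyte markers below 1 CPM. The part of these shifts in the Igf1, Irs1 and Irs2 differences was not tested.

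The 3 genes most like Igf1 over the 8 pool libraries, among 10743 genes whose average log2 CPM was 2 or more, were Galk2 (Pearson r = 0.998), Slc30a4 (r = 0.998) and Arxes2 (r = 0.997). These are descriptive values, since the libraries come in pairs from 4 pools, and the scramble means given here include scramble replicate 1. Galk2, a sugar kinase gene, averaged 35.6, 45.7, 28.5 and 36.7 CPM in pools 1 to 4, against 50.1 CPM in scramble. Slc30a4, which encodes a zinc transporter, averaged 149, 170, 131 and 152 CPM, against 144 CPM in scramble. Arxes2 averaged 65.0, 106, 45.8 and 70.3 CPM, against 117 CPM in scramble. All 3 had pool 2 highest and pool 3 lowest of the pools, which follows from their choice by likeness to Igf1 over these libraries. Scramble was not used in the choice. Its mean was above that of pool 2 for Galk2 and Arxes2, unlike Igf1, and below it for Slc30a4.

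Of 48 other genes of the insulin and IGF pathway, 38 passed the filter. In the fits of all libraries, edgeR called 0 of them for all pools against scramble, against 0.00715% of all genes. It called 1, 0, 2 and 1 of them for pools 1 to 4, against 1.93%, 0.00707%, 11.2% and 2.57% of all genes. At an unadjusted p of 0.05, 10 passed for all pools and 4 for pool 2, where DESeq2 called 4 and 0. The share over all genes is not given for these counts, which are not read as a result about the 38 genes. The called gene common to pools 1, 3 and 4 was Igfbp3, the main carrier of IGFs in blood. It had 7.87 and 6.75 CPM in pool 1, 9.81 and 10.5 CPM in pool 2, 7.46 and 7.33 CPM in pool 3, and 7.27 and 7.67 CPM in pool 4, against 15.8, 14.1 and 10.6 CPM in scramble. Every pool library was below every scramble library, in pool 2 by a narrow margin. The log2 fold changes in pools 1, 3 and 4 were −0.94 ± 0.17, −0.93 ± 0.17 and −0.90 ± 0.17 (edgeR, adjusted p = 0.0351, 0.0108 and 0.0352).

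Igfbp3 in pool 2 was at −0.41 ± 0.16 (adjusted p = 0.611), and its difference between pools with and without siRNA 7 was −0.52 ± 0.08 in the pool libraries alone (edgeR, adjusted p = 2.11e-05). Without scramble replicate 1 the calls in pools 1, 3 and 4 had adjusted p of at most 4.21e-05 and held in 10 of 10 further leave-outs. With that library kept, leaving out 1 other library ended the call in 9 of 11 fits in pools 1 and 4 (adjusted p up to 0.409) and in 2 of 11 in pool 3. In the authors' deposited table Igfbp3 was lower in all pools against scramble, with a log2 fold change of −0.68 and an adjusted p of 0.00184.

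The other call with all libraries was Igf2bp1, which encodes an mRNA-binding protein named for Igf2 mRNA, in pool 3 (log2 fold change 0.71 ± 0.18, edgeR, adjusted p = 0.0387). It was scarce, at 1.76 and 2.01 CPM in pool 3, against 1.29, 0.921 and 1.09 CPM in scramble, and DESeq2 gave an adjusted p of 0.0604. The call held in 1 of 11 leave-outs, without scramble replicate 1 (adjusted p up to 0.257 in the others), and had an adjusted p of 0.493 with the length trend removed. Without scramble replicate 1, 9, 1, 21 and 7 of the 38 genes were called in pools 1 to 4, against 28.8%, 4.39%, 48.8% and 31% of all genes, and 1 in all pools together, against 0.469%. That gene was Gab1, a docking protein that binds PI3-kinase, at 63.3 to 74.5 CPM in the pools, against 37.8, 52.9 and 52.0 CPM in scramble. Gab1 rose in every pool, with log2 fold changes of 0.35, 0.28, 0.36 and 0.40 in pools 1 to 4 (each SE 0.05, edgeR, adjusted p = 1.39e-05, 0.00151, 3.29e-06 and 2.1e-06). All 4 calls held in 10 of 10 further leave-outs, whereas the call in all pools together (0.35 ± 0.05, adjusted p = 0.0295) held in 3 of 10 (adjusted p up to 0.336 without pool 1 replicate 1 or 2, pool 3 replicate 2, either pool 4 library or either scramble library). With scramble replicate 1 kept, Gab1 was at 0.50, 0.43, 0.52 and 0.56 in pools 1 to 4 (adjusted p from 0.0601 to 0.611), and in all pools against scramble was at 0.50 ± 0.10 (adjusted p = 0.0935).

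Between pools with and without siRNA 7, 19 of the 38 genes were called in the pool libraries alone, 8 higher and 11 lower, with a median log2 fold change of 0.00, against 47.6% of all genes called. Between pool 3 and pools 1 and 4, 13 were called, 5 higher and 8 lower, against 29.9% of all genes. Both shares are near the background. In the fits of all 11 libraries edgeR called 0 of the 38 in both comparisons, against 5.25% and 0.0141% of all genes. In these fits 3 and 1 of the 38 had an unadjusted p below 0.05, and DESeq2 called 2 and 0. Among feedback inhibitors, Socs1 (0.86 ± 0.21, adjusted p = 0.00227) and Socs3 (0.42 ± 0.08, adjusted p = 0.000122) were higher in the pools with siRNA 7, Socs1 at no more than 2.50 CPM in any pool library. Others did not rise. Socs2 was lower (−0.13 ± 0.05, edgeR adjusted p = 0.0212, with 0.0804 by DESeq2), as was Grb10 (−0.21 ± 0.03, edgeR adjusted p = 1.04e-05). Cish was level (0.01 ± 0.09, edgeR adjusted p = 0.928). The inhibitor Grb14 (−0.30 ± 0.05), the docking protein Gab2 (−0.30 ± 0.03) and Pappa (−0.21 ± 0.03), the protease that cleaves IGFBP4, were lower, with adjusted p of 8.59e-05, 6.46e-08 and 9.3e-06. In pool 3 against pools 1 and 4, Gab2 was lower by 0.44 ± 0.04 and Grb14 by 0.39 ± 0.06 (edgeR, adjusted p = 8.94e-09 and 4.86e-05), and the adaptor Dok4 by 0.34 ± 0.09 (adjusted p = 0.00732).

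Sh2b2, another adaptor, fell in pools 1 and 4 by 0.63 ± 0.18 and 0.76 ± 0.19 against scramble replicates 2 and 3 (edgeR, adjusted p = 0.0102 and 0.00351), and was at −0.62 and −0.74 with all libraries (adjusted p = 0.140 and 0.0821). Of the other genes with the highest levels in their roles, Ptprf, Ide, Htra1, Sos1, Igf2bp2 and Insl6 each differed between pools in the pool libraries alone. Ptprf, a receptor phosphatase gene, had 476 to 517 CPM in pools 1, 3 and 4, against 423 and 429 CPM in pool 2 (log2 fold change 0.16 ± 0.03, adjusted p = 4.15e-05). Ide, which encodes the insulin-degrading enzyme, had 364 to 393 CPM in pools 1, 3 and 4, against 407 and 416 CPM in pool 2 (−0.17 ± 0.03, adjusted p = 8.22e-06). The protease gene Htra1 had 613 and 620 CPM in pool 3, against 552 to 565 CPM in pools 1 and 4 (0.12 ± 0.03, adjusted p = 0.00182). Sos1, an exchange factor that activates RAS, had 105 to 125 CPM in pools 1, 3 and 4, against 97.0 and 98.0 CPM in pool 2 (0.15 ± 0.03, adjusted p = 0.000456). Igf2bp2, which encodes an mRNA-binding protein, had 37.6 to 42.1 CPM in pools 1, 3 and 4, against 33.2 and 35.1 CPM in pool 2 (0.15 ± 0.04, adjusted p = 0.00465). Insl6, a relative of the insulin genes, had 3.41 to 3.89 CPM in pools 1, 3 and 4, against 4.33 and 4.62 CPM in pool 2 (−0.36 ± 0.11, adjusted p = 0.00911, with 0.0932 by DESeq2). Rxfp2, at most 0.515 CPM, was not called. Igfbp7, Igfbp6, Lrp1 and Ptpn1 were not called in the 4-pool test (adjusted p = 0.508, 0.809, 0.542 and 0.225). Igfbp7 was at 97.2 to 108 CPM in the pools, against 184, 104 and 88.9 CPM in scramble, and Igfbp6 at 25.6 to 29.1 CPM, against 65.1, 28.2 and 24.6 CPM. The clearance receptor Lrp1 was at 481 to 554 CPM, against 179, 541 and 550 CPM, and the phosphatase Ptpn1, which dephosphorylates the insulin receptor, at 132 to 144 CPM, against 138, 143 and 132 CPM.

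**Figure D5:**
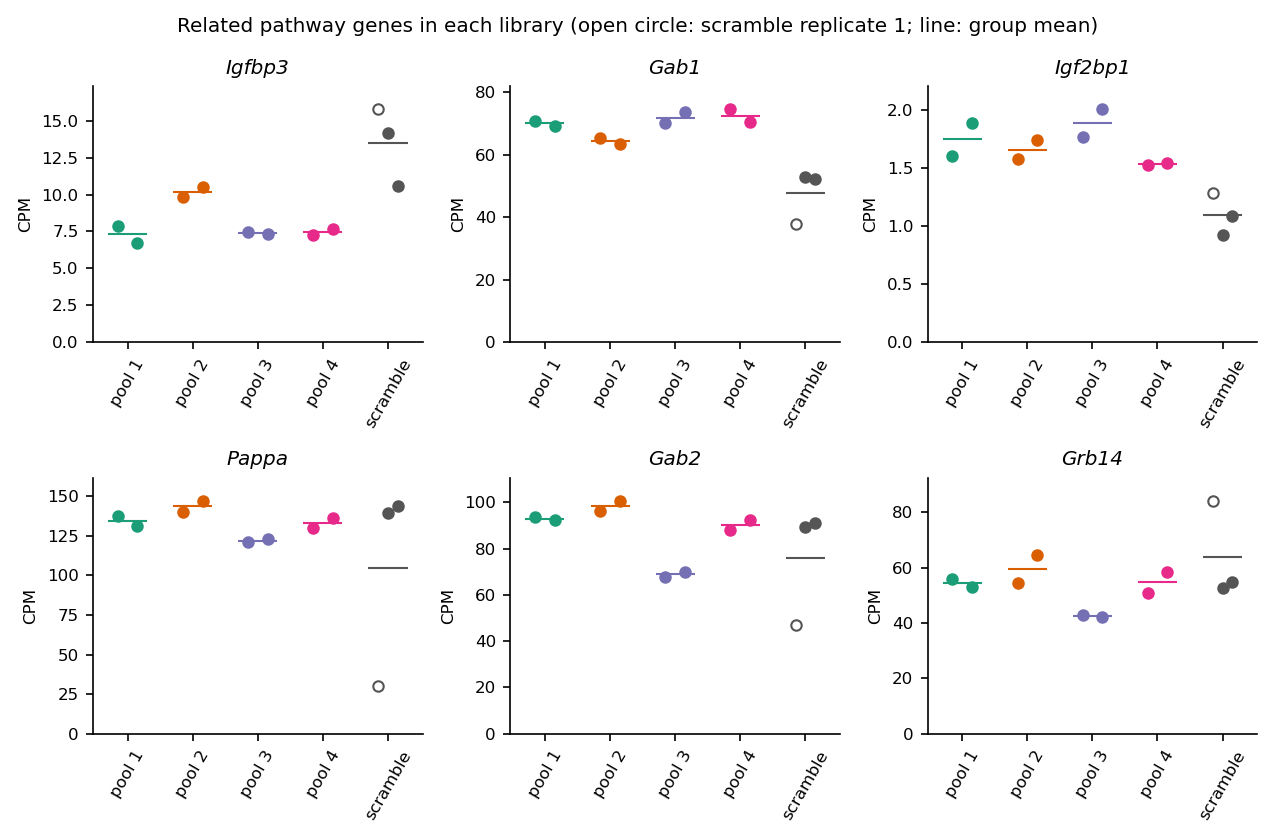
CPM of 6 related pathway genes in each library (points are libraries, lines are group means, open circles are scramble replicate 1, vertical axes start at 0). Igfbp3 is below scramble and Gab1 above it in every pool library, while Pappa, Gab2 and Grb14 are lowest in pool 3 among the pools.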

How the data were processed

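Poly(A) RNA of 11 libraries was measured with a stranded kit and single 75-base reads, per the labels. The submitters' processing notes name the build mm10, TopHat2 and featureCounts 1.5.0-p2, and give no strand setting. The files the authors deposited hold whole-number counts per gene. The authors' deposited comparison table gives a mean signal of normalized counts, log2 fold changes, their errors, a Wald score and p-values, and its design is not known. The 92 ERCC rows (0.268% to 0.788% of a library) were left out of CPM and tests.

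Counts were tested with the two-sided quasi-likelihood F test of edgeR 4.0.16 (R 4.3.3) with TMM scaling and filterByExpr, with 8 libraries against 3 for all pools and with 5 groups otherwise. Benjamini-Hochberg adjustment ran over all genes tested, and an adjusted p below 0.05 was called. Counts at an unadjusted p, counts by DESeq2 and most counts under alternative settings are printed without the share over all genes. They are not read as results about the genes counted. In a test on simulated data of all pools against scramble on 13937 genes, 91 of 100 genes changed by 0.5 on the log2 scale and 100 of 100 changed by 1 were called. For single pools, on 14018 genes, 50 (pool 3) to 69 (pool 1) of 100 changed by 0.5 were called. The simulation used the same spread for every gene, no differences between pools and no library like scramble replicate 1. Its rates therefore do not give the power of the tests on the real libraries. Alternatives used DESeq2 1.42.0 and limma 3.58.1. RPKM used merged exon lengths of GENCODE M21 (GRCm38), from which coordinates also come. Start-region sequences are from RefSeq.

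The genes and lists were chosen with earlier results of these data known. Named were the 10 genes, Akt1, related genes highest in their role or most changed among those called, and the 3 genes most like the one with the smallest p between pools. Some related genes that this rule takes are given by count only. Socs2, Cish and Grb10 are named outside it, beside Socs1 and Socs3.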

Additional observations from a re-analysis of the deposited data

Results flagged for a closer look

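In 8 of the 10 genes the effect differed between the 4 siRNA pools by a test of the difference itself, the 4-pool test on the 8 pool libraries alone, with edgeR adjusted p of 1.83e-12 for Igf1, 2.41e-09 for Irs1, 1.25e-07 for Igfbp2, 4.06e-05 for Irs2, 0.000826 for Igf2r, 0.0119 for Igf1r, 0.0220 for Igf2 and 0.0233 for Insr. DESeq2 on the same libraries did not call Igf1r (0.0604) or Igf2 (0.156), and the edgeR calls of Igf1r, Igf2 and Insr were each lost when 1 of 2 or 3 pool libraries was left out (adjusted p up to 0.0898, 0.108 and 0.223). In the same test 48.6% of all genes were called. With all 11 libraries 0 of the 10 genes passed. No pool library was set apart from the other 7 in any of the 10 genes by Dixon's test. That test could hardly set 1 apart here, since the 8 libraries come in pairs from 4 pools that differ.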

How the results depend on the processing

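With all 11 libraries the counts of called genes were 0 of 10 in every comparison, and they stayed at 0 in all 9 comparisons with RLE scaling, library size scaling, limma-voom, no filter on low counts, and a filter of CPM above 1 throughout, each with no other choice changed, and without both libraries of any 1 pool in all pools against scramble. DESeq2 called 1 gene in pool 4, in the 4-pool test and with against without siRNA 7, and 0 in the other 6. Removing the trend on exon length gave 1 in pool 1, 3 in pool 3 and 1 in pool 4, the 4-pool test and siRNA 7, and 0 in the other 4. With 1 or 2 libraries left out, counts ranged from 0 to 1 in all pools, 0 to 5 in pools 1, 2 and 3, and 0 to 4 in pool 4. The ranges between pools also include fits of the pool libraries alone with 1 of them left out. They were 0 to 8 in the 4-pool test and for siRNA 7, 0 to 4 in pool 3 against pools 1 and 4, and 0 to 0 in pool 1 against pool 4.

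The following settings, other than the omission of scramble replicate 1 alone, were chosen after the data were seen. That omission was planned only as part of leaving out each library in turn. Scramble replicate 1 was singled out for the values in the text after its counts had been seen. Without scramble replicate 1, the counts for pools 1 to 4 were 2, 3, 3 and 2 with DESeq2, 3, 5, 5 and 3 with RLE, 5, 4, 5 and 3 with the length trend removed, and 4, 5, 7 and 5 with library size scaling. For all pools they were 1 with DESeq2 and 3 in the 5-group fit for the 4 pool means averaged. In the 4-pool test, with against without siRNA 7, and pool 3 against pools 1 and 4, they were 4, 5 and 3 with DESeq2, 6, 7 and 4 with RLE, 7, 6 and 4 with the length trend removed, and 8, 7 and 4 with library size scaling. The pool libraries alone gave 8, 8 and 4, DESeq2 on them 6, 6 and 4, and a further library left out 6 to 8, 5 to 8 and 4.

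Replicate numbers do not pair libraries. Deviations of same-numbered libraries from their group means correlated at −0.05 to 0.08. With the replicate block 2 genes were called in all pools, Igfbp2 and Insr, and 0 elsewhere, without scramble replicate 1 the counts were 4, 6, 4 and 4 for pools 1 to 4 and 9, 8 and 4 between pools, and 9, 8 and 4 in the pool libraries alone. Without scramble replicate 1, the block gave adjusted p of 0.0750 for Igf1 in pool 1, 0.0594 for Igfbp2 in pool 3 and 0.516 for Gab1 in all pools.

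A sign was read only where the value was called. Igfbp2 in pool 3 turned from −0.25 to positive without scramble replicate 1, at 0.33 with RLE, 0.32 with the length trend removed, 0.42 with library size scaling and −0.53 to 0.58 with libraries left out. Igfbp2 ranged from −0.83 to 0.28 in pool 1, −0.89 to 0.23 in pool 2 and −0.81 to 0.31 in pool 4, called as positive where scramble replicate 3 was the only scramble library kept, and Igf1 in pool 4 from −0.19 to 0.16. Igfbp4 turned to 0.16 in pool 3 and 0.19 in pool 4 with library size scaling without scramble replicate 1. In each of these the sign depends on which scramble libraries are kept, and the cause was not tested. With 2 libraries a pool, small changes rest on few libraries, and counts of 80 to 152 reads limit Igf2 and Irs2 in scramble replicate 1.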
